A study of Mus musculus with 48 samples.

Results

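DEAD and DEAH box RNA helicases are enzymes that use ATP to open RNA duplexes or to strip proteins from RNA. They were taken here as the protein-coding genes whose symbol starts with Ddx or Dhx and a number, without the Y chromosome, which gave 52 of the 50600 genes listed. Of these, 48 had enough counts to be tested, among 13889 genes tested in all, and Ddx4, Ddx25, Ddx43 and Ddx60 did not. The libraries came from mPDAC cells, a mouse pancreatic ductal adenocarcinoma line with the genetic background FVB/N x C57BL6 (labelled 8-week-old), either non-treated (NT) or treated for 48 h with 50 µM of N6L, a pseudopeptide that binds nucleolin. Cultures 1, 2 and 4 were non-treated and cultures 1, 2 and 3 received N6L, and each gave a cytoplasmic (cyto) and a polysomal (poly) library from 1 lysate after emetine, which holds ribosomes on the mRNA, and removal of nuclei and mitochondria by centrifugation. All groups stand for 1 cell line at 1 dose and 1 time. Nothing in the labels says that cultures of 1 treatment were started separately, so p-values measure the spread between these cultures, which may be technical.

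Each helicase has a core of 2 linked domains in which conserved motifs bind ATP and RNA, and motif II, which gives the family its name, holds the residues that position ATP for cleavage. In cells the DEAD group mostly separates short duplexes and loads or removes proteins, while the DEAH group moves along RNA and drives the remodelling steps of the spliceosome. Different members serve translation and mRNA decay, splicing, the assembly of ribosomes in the nucleolus, export of mRNA, mitochondrial ribosomes and the sensing of viral RNA. Nucleolin, the target of N6L, is itself a nucleolar RNA-binding protein, and the comparisons below ask how the helicase mRNAs changed in amount and in polysomes after N6L.

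The names DEAD and DEAH describe motif II, and its codons were read from the longest complete coding sequence of each member (GENCODE vM21, GRCm38). All 52 members had such a motif after a hydrophobic stretch. The codons spelled DEAD in 27 members and DEAH in 9, Ddx11 among the latter. The other 16 members carried DEVH (5), DEVD (3), DECD (2), DECH (2), DEIH (2), DESD (1) or DDVH (1). The following 30 coding bases, 5′ to 3′ on the sense strand with the 4 codons of motif II in capitals, are shown for helicases on which the results turn and for paralogs of 2 of them, so that the spelling of the site can be set beside the values that follow.
Ddx3x: ctggtgttaGATGAAGCTGACcggatgtta
Ddx5: cttgtccttGATGAAGCTGATaggatgctt
Ddx46: gttgttttaGATGAAGCAGACagaatgttt
Ddx41: ctagccctgGATGAAGCTGACcgcatgatt
Ddx21: gttgtcctgGATGAAGTCGACcagatgttg
Ddx50: gttgtgcttGATGAAGTAGATcaaatgtta
Ddx39: tttgtgctaGATGAATGTGACaagatgctg
Ddx39b: tttattttgGACGAGTGTGACaagatgctt
Ddx58: atgatatttGATGAGTGTCATaacactagc
Dhx9: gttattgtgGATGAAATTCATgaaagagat
Dhx36: attgtacttGATGAAATTCATgaaaggaat
Dhx15: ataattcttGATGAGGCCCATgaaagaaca
Dhx8: attatgttgGATGAAGCACACgagaggacc
Dhx32: atcatcttgGACGATGTCCACgagagaagc

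These windows lie within single coding exons of the transcripts read, Ddx3x at chrX:13289399-13289428 in exon 11 (plus strand), Ddx5 at chr11:106785184-106785213 in exon 7 (minus strand), Ddx46 at chr13:55660749-55660778 in exon 14 (plus strand), Ddx41 at chr13:55533047-55533076 in exon 10 (minus strand), Ddx21 at chr10:62591872-62591901 in exon 6 (minus strand), Ddx50 at chr10:62640502-62640531 in exon 6 (minus strand), Ddx39 at chr8:83721101-83721130 in exon 5 (plus strand), Ddx39b at chr17:35247081-35247110 in exon 4 (plus strand), Ddx58 at chr4:40223876-40223905 in exon 8 (minus strand), Dhx9 at chr1:153468880-153468909 in exon 14 (minus strand), Dhx36 at chr3:62493845-62493874 in exon 8 (minus strand), Dhx15 at chr5:52171487-52171516 in exon 4 (minus strand), Dhx8 at chr11:101752131-101752160 in exon 14 (plus strand) and Dhx32 at chr7:133742705-133742734 in exon 4 (minus strand). Ddx21 and Ddx50, neighbouring paralogs on chromosome 10, shared DEVD with Ddx28, Dhx9 and Dhx36 shared DEIH, Ddx39 and Ddx39b shared DECD, and Ddx58 shared DECH with Dhx58. Dhx32 was the member with DDVH. Grouped by motif, the 24 tested DEAD members had a median cytoplasmic log2 difference of 0.14 with N6L and the 9 tested DEAH members one of 0.48, a description without a test.

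The 12 libraries, each the sum of 4 technical replicates, held 19519911 to 44972333 counts. Helicase mRNAs made up 0.419 to 0.528% of the counts in NT cytoplasm, 0.398 to 0.483% in NT polysomes, 0.632 to 0.677% in N6L cytoplasm and 0.358 to 0.537% in N6L polysomes. The share was thus higher in all 3 N6L cytoplasmic libraries than in any NT library. Levels are given as CPM, the share of a library's counts in parts per 1000000 after TMM scaling. Markers of ductal and epithelial cells summed to 6522 to 10746 CPM with 7 of 8 detected at 1 CPM or more, while the epithelial marker Epcam stayed at 0.301 CPM or less. Those of fibroblasts, leukocytes and endothelial cells summed to at most 2.23 CPM, and those of islet cells to 0. Of the acinar markers, 1 of 4 reached 1 CPM, and they summed to 27.6 to 82.7 CPM. Nuclear RNAs (Malat1, Neat1 and Kcnq1ot1) took 0.00734 to 0.0131% of the counts in NT cytoplasm and 0.0213 to 0.0250% in N6L cytoplasm, and mitochondrially encoded genes 0.454 to 0.966% and 0.121 to 0.242%. Both moved with the treatment, and their part in the results was not tested. In such bulk libraries fewer cells that hold an mRNA and less of it per cell cannot be told apart, and every value is relative to the other mRNAs of its library.

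Per kilobase of merged exons, the most abundant helicase mRNA in NT cytoplasm was Ddx39b, which acts in spliceosome assembly and mRNA export, with 84.3 ± 12.2 CPM per kilobase (SD, n = 3). Ddx5, a helicase of transcription and splicing, followed with 72.4 ± 17.1, then Ddx39 with 49.2 ± 4.57 and its neighbour in the order, Ddx17, with 48.3 ± 7.05. The cultures of Ddx39b and Ddx5 overlapped, as did those of Ddx39 and Ddx17. In N6L cytoplasm Ddx5 stood first with 132 ± 13.7 and Ddx39b second with 80.6 ± 3.25. At the low end, the viral RNA sensor Ddx58 had 1.31 ± 0.0759 and Dhx58 0.196 ± 0.105 in NT cytoplasm.

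In the cytoplasm, N6L-treated cells held more mRNA of 9 helicases and less of 2 (edgeR's quasi-likelihood test, Benjamini-Hochberg adjusted p under 0.05 over all 13889 genes). The 9 were Ddx3x, Dhx9, Ddx5, Ddx6, Ddx58, Dhx57, Dhx38, Dhx32 and Dhx8, with log2 differences from 0.50 to 1.09, and the 2 were Ddx49 and Ddx39. Of all genes tested, 14.5% were higher and 13.8% lower, against 18.8% and 4.17% of the 48 helicases. The median helicase differed by 0.21 on the log2 scale, with 33 above 0 and 15 below, where the median of all genes was 0.04. For 24 helicases the cultures of both treatments did not overlap, 18 higher and 6 lower, against 29.3% higher and 25.6% lower of all genes and 54.9% in either direction.

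**Figure D1:**
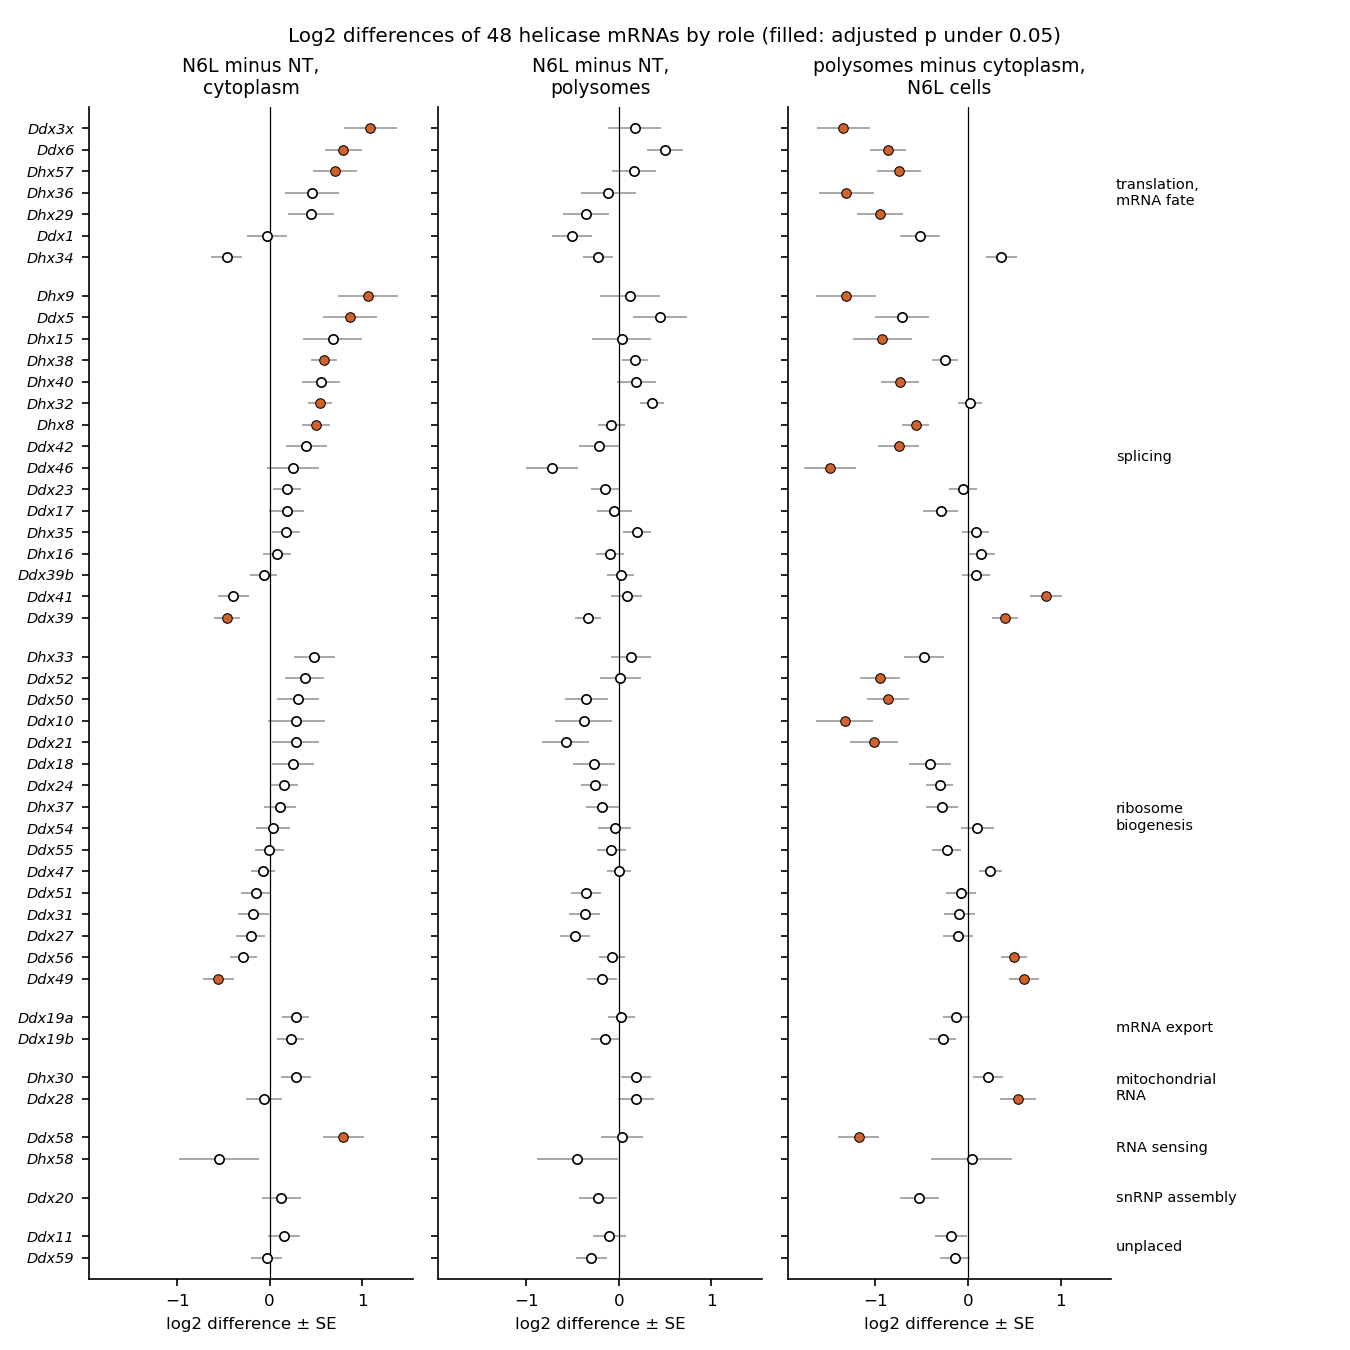
Fitted log2 differences (x axes, with bars of 1 SE) of the 48 helicase mRNAs tested (rows, grouped by role) for N6L minus NT in the cytoplasm, N6L minus NT in the polysomes, and polysomes minus cytoplasm in N6L cells. Filled points passed an adjusted p of 0.05, 11 in the left panel, 0 in the middle one and 21 in the right one.

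Helicases of translation and mRNA fate held the largest cytoplasmic difference, and 3 of the 7 tested rose and 0 fell. Ddx3x, an X-linked helicase that aids initiation on structured mRNAs, gave 201, 173 and 106 CPM in NT cytoplasm of cultures 1, 2 and 4 and 299, 409.5 and 313 CPM in N6L cytoplasm of cultures 1, 2 and 3. All 3 treated cultures lay above all 3 controls, with a log2 difference of 1.09 (SE 0.28, adjusted p = 0.0137), a 2.13-fold increase. Its polysomal values were 140.5, 115 and 101 CPM in NT and 173, 151 and 76.7 CPM in N6L cells, which overlapped. Ddx6, which represses translation and promotes decapping in P-bodies, had 145, 121 and 111 CPM in NT and 197, 254 and 203 CPM in N6L cytoplasm, a log2 difference of 0.80 (SE 0.20, adjusted p = 0.0108). In its polysomes 102, 85.7 and 67.4 CPM stood against 129, 138 and 92.1 CPM. The cytoplasmic cultures of Ddx6 did not overlap, whereas the polysomal ones did. Dhx57 rose too, by 0.71 (SE 0.24, adjusted p = 0.0389), from 28.3, 38.3 and 24.5 CPM in NT to 47.6, 50.5 and 50.9 CPM in N6L cytoplasm without overlap.

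The other 4 did not pass the test. Dhx36, which unwinds G-quadruplexes, had 90.3, 82.5 and 52.8 CPM in NT and 87.6, 123 and 99.1 CPM in N6L cytoplasm, and 53.0, 42.5 and 39.8 CPM and 54.8, 49.1 and 20.9 CPM in the polysomes. Dhx29, which assists the scanning small ribosomal subunit, had 22.0, 28.8 and 24.1 CPM in NT and 36.2, 33.6 and 32.1 CPM in N6L cytoplasm, and 21.2, 23.6 and 22.8 CPM and 25.1, 17.7 and 9.89 CPM in the polysomes. The cytoplasmic log2 differences of Dhx36 and Dhx29 were 0.46 (SE 0.29, adjusted p = 0.248) and 0.44 (SE 0.25, adjusted p = 0.182). Dhx34, a factor of nonsense-mediated decay, had 50.01, 44.5 and 36.9 CPM in NT and 35.0, 28.1 and 32.3 CPM in N6L cytoplasm, and 46.4, 52.0 and 44.4 CPM and 37.7, 36.5 and 48.1 CPM in the polysomes. Its treated cytoplasmic cultures all lay below the controls, with a log2 difference of -0.46 (SE 0.17, adjusted p = 0.0512). Ddx1, which works with the tRNA ligase complex, had 148, 178 and 168 CPM in NT and 146, 169 and 169.7 CPM in N6L cytoplasm, and 162, 145 and 172 CPM and 146, 123 and 68.7 CPM in the polysomes, where N6L culture 3 was the lowest.

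Among 16 splicing helicases, 5 rose and 1 fell in the cytoplasm. Dhx9, or RNA helicase A, which acts on RNA and DNA structures in transcription and splicing, had 147, 136 and 97.9 CPM in NT and 245, 288 and 260.3 CPM in N6L cytoplasm, a log2 difference of 1.06 (SE 0.32, adjusted p = 0.0271). Its polysomal values were 110.3, 106 and 77.0 CPM and 160.1, 113 and 45.6 CPM, and the 3 N6L cultures there ran from the highest to the lowest of the 6. Ddx5 had 456, 492 and 306 CPM in NT and 681, 837 and 777 CPM in N6L cytoplasm, and 405, 373 and 247 CPM and 592, 564 and 242 CPM in the polysomes. The cytoplasmic rise of Ddx5 was 0.87 (SE 0.29, adjusted p = 0.0391). Its paralog Ddx17 had 409, 390.3 and 308 CPM in NT and 458, 414 and 386 CPM in N6L cytoplasm, and 356, 408 and 295 CPM and 424, 340.4 and 260.0 CPM in the polysomes. The treatments overlapped for Ddx17 in both fractions, and its cytoplasmic log2 difference was 0.18 (SE 0.19, adjusted p = 0.481).

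The spliceosomal DEAH helicases Dhx38, which acts at the second catalytic step, and Dhx8, which releases the spliced mRNA, rose by 0.59 (SE 0.14, adjusted p = 0.00945) and 0.50 (SE 0.15, adjusted p = 0.0233). Dhx38 went from 105, 115 and 95.0 CPM in NT to 161, 148 and 166 CPM in N6L cytoplasm, and Dhx8 from 49.1, 49.1 and 41.4 CPM to 63.9, 64.4 and 69.2 CPM. Dhx32 rose by 0.54 (SE 0.13, adjusted p = 0.00909), from 95.3, 102 and 108 CPM in NT to 137, 150.1 and 158 CPM in N6L cytoplasm. It was higher in the polysomes as well, with 108, 119 and 125 CPM and 151, 153 and 147 CPM and no overlap, although the test there was not passed, with a log2 difference of 0.36 (SE 0.13, adjusted p = 0.0942). Dhx15, which disassembles the spliceosome, had 181, 185 and 116 CPM in NT and 269, 269 and 235 CPM in N6L cytoplasm, and 156, 146 and 96.2 CPM and 200.1, 142 and 64.2 CPM in the polysomes. Every treated cytoplasmic culture exceeded every control, but the test was not passed, with a log2 difference of 0.68 (SE 0.32, adjusted p = 0.116). Dhx16, which starts the first catalytic step, had 73.1, 81.0 and 73.5 CPM in NT and 85.3, 71.3 and 83.6 CPM in N6L cytoplasm, and 80.7, 104 and 98.9 CPM and 93.2, 77.0 and 95.5 CPM in the polysomes, with overlap in both fractions.

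Of the splicing helicases below 0, Ddx39, a paralog of Ddx39b in mRNA export, fell by 0.46 (SE 0.14, adjusted p = 0.029) on the log2 scale. It had 232, 250.5 and 279 CPM in NT and 189.9, 176 and 187 CPM in N6L cytoplasm, and 281, 303 and 334 CPM and 226, 223 and 281 CPM in the polysomes. The treated cultures of Ddx39 lay below the controls in both fractions. In the polysomes the groups almost met, at 280.9 CPM in N6L culture 3 and 281.3 CPM in NT culture 1. Ddx39b itself had 284, 301 and 371 CPM in NT and 308, 291 and 315 CPM in N6L cytoplasm, and 297, 324 and 336 CPM and 291, 304 and 374 CPM in the polysomes, a cytoplasmic log2 difference of -0.07 (SE 0.15, adjusted p = 0.759). Ddx41, a helicase of the catalytic spliceosome, had 92.4, 95.0 and 93.1 CPM in NT and 72.3, 67.0 and 74.1 CPM in N6L cytoplasm, and 105, 120.1 and 136 CPM and 102, 120.0 and 161 CPM in the polysomes. Its treated cytoplasmic cultures lay below the controls without overlap, at -0.40 (SE 0.17, adjusted p = 0.0894). Ddx46, which acts with the U2 particle at the branch point, had 107, 124 and 112 CPM in NT and 118, 145 and 147 CPM in N6L cytoplasm, and 80.0, 74.4 and 86.6 CPM and 74.5, 47.1 and 24.0 CPM in the polysomes. Its cytoplasmic log2 difference was 0.25 (SE 0.28, adjusted p = 0.506). The remaining splicing members, Ddx23, Ddx42, Dhx35 and Dhx40, had log2 differences from 0.18 to 0.56, and none passed.

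**Figure D2:**
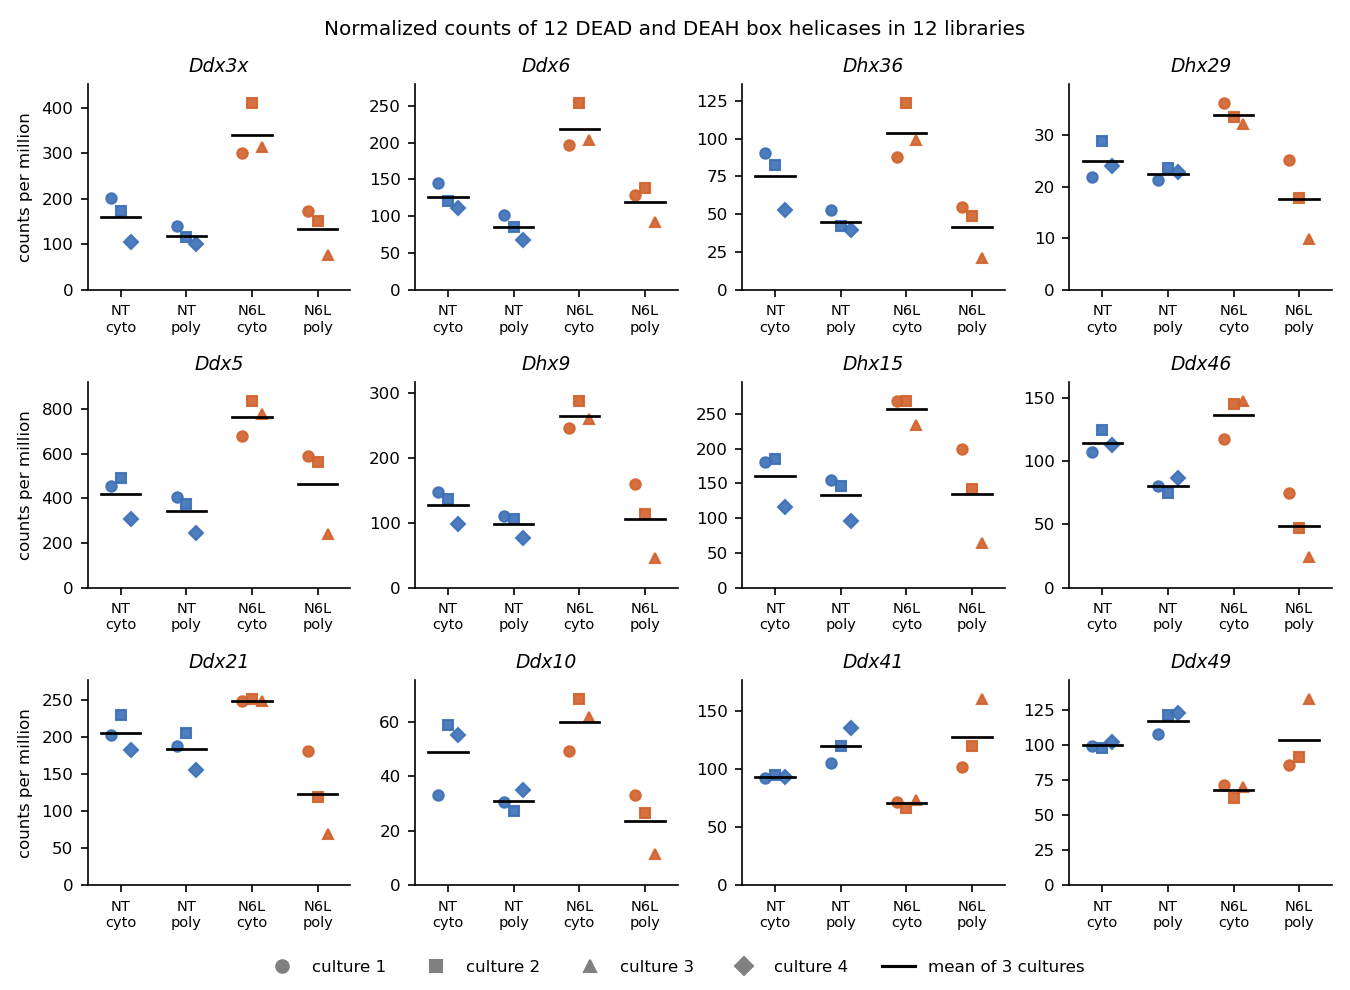
Normalized CPM (y axes from 0) of 12 helicases in the cytoplasm (cyto) and polysomes (poly) of NT (blue) and N6L (orange) cells, with 1 symbol per culture and a line at the mean of 3 cultures. For Ddx3x, Ddx5, Ddx6 and Dhx9 the N6L cytoplasmic values stand above every NT value, and in 10 of the 12 panels, all but Ddx41 and Ddx49, N6L culture 3 has the lowest N6L polysomal value.

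Helicases of ribosome biogenesis, most of them nucleolar, gave 1 call in the cytoplasm, where 1 of 16 fell and 0 rose and the median log2 difference was 0.07. Ddx49 had 99.4, 98.1 and 102 CPM in NT and 71.5, 62.4 and 70.0 CPM in N6L cytoplasm, a log2 difference of -0.55 (SE 0.17, adjusted p = 0.0244), and 107, 122 and 123 CPM and 86.0, 91.7 and 133 CPM in the polysomes. Ddx21, which couples transcription and processing of ribosomal RNA, had 203, 230.2 and 183 CPM in NT and 248, 251 and 248 CPM in N6L cytoplasm, and 188, 206 and 156 CPM and 181, 119 and 68.8 CPM in the polysomes. Its log2 difference was 0.28 (SE 0.25, adjusted p = 0.418) in the cytoplasm and -0.57 (SE 0.25, adjusted p = 0.166) in the polysomes. Ddx10 had 33.0, 58.7 and 55.2 CPM in NT and 49.1, 68.4 and 61.7 CPM in N6L cytoplasm, and 30.6, 27.2 and 34.9 CPM and 33.0, 26.5 and 11.5 CPM in the polysomes. Ddx52 had 66.3, 67.6 and 57.7 CPM in NT and 70.1, 94.2 and 84.5 CPM in N6L cytoplasm, and 43.9, 40.4 and 42.9 CPM and 49.9, 52.5 and 26.2 CPM in the polysomes. For Ddx10 the treatments overlapped in both fractions, for Ddx52 only in the polysomes. The other 12 had cytoplasmic log2 differences from -0.29 (Ddx56) to 0.48 (Dhx33).

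Of the RNA sensors, Ddx58, known as RIG-I, rose by 0.79 (SE 0.22, adjusted p = 0.0184) in the cytoplasm, from 8.67, 9.40 and 9.71 CPM in NT to 16.3, 15.1 and 16.8 CPM with N6L. Its polysomal values were 6.79, 6.68 and 7.26 CPM in NT and 7.48, 9.41 and 4.25 CPM in N6L cells. The cytoplasmic cultures were well apart and the polysomal ones overlapped. Dhx58, which modulates RIG-I signalling, was near the detection limit with 0.702, 0.272 and 0.951 CPM in NT and 0.471, 0.444 and 0.402 CPM in N6L cytoplasm, and 0.584, 0.557 and 0.693 CPM and 0.607, 0.209 and 0.531 CPM in the polysomes, 187 counts in all, and its log2 difference was -0.55 (SE 0.43, adjusted p = 0.346). Ddx60, an interferon-induced member, was not tested and had 3, 1 and 2 counts in NT cytoplasm, 6, 17 and 9 in N6L cytoplasm, 2, 1 and 0 in NT polysomes and 3, 4 and 3 in N6L polysomes. The germ cell helicases Ddx4 and Ddx43 and the testis helicase Ddx25 had 8, 0 and 21 counts over the 12 libraries, the 0 of Ddx43 allowing up to 3 counts of these totals.

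Both mitochondrial helicases stayed below the limit in the cytoplasm. Dhx30, which acts on mitochondrial ribosomes, had 45.5, 58.8 and 47.1 CPM in NT and 65.7, 58.1 and 60.1 CPM in N6L cytoplasm, and 52.3, 72.8 and 62.5 CPM and 75.5, 62.5 and 75.9 CPM in the polysomes. Ddx28, which assembles their large subunit, had 32.6, 30.3 and 26.7 CPM in NT and 26.3, 28.9 and 30.9 CPM in N6L cytoplasm, and 34.2, 40.1 and 36.0 CPM and 31.5, 37.8 and 56.3 CPM in the polysomes. The highest value of Ddx28 was that of N6L culture 3 in the polysomes. The export factors Ddx19a and Ddx19b, near-identical paralogs, had cytoplasmic differences of 0.28 (SE 0.15, adjusted p = 0.159) and 0.23 (SE 0.15, adjusted p = 0.256). Ddx20 of snRNP assembly (0.13), the DNA helicase Ddx11 (0.15) and Ddx59 (-0.03) did not pass.

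These cytoplasmic calls rested on 3 cultures a side. Without N6L culture 2, 1 helicase passed (Ddx58), and without NT culture 1, 2 or 4 there were 3, 5 and 3. These were Ddx3x, Ddx6 and Dhx38 without NT culture 1, the same 3 with Dhx32 and Dhx57 without NT culture 2, and Ddx6, Dhx32 and the lower Dhx34 without NT culture 4. DESeq2 called 10 higher and 4 lower, and the log2 differences of the 11 kept their sign in every alternative run. The shares of all genes called by DESeq2 or without a culture were not counted, so these numbers cannot be read as particular to helicases.

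In the polysomes, 0 of 48 helicases passed the test between N6L and NT cells, where 6.01% of all genes were higher and 3.66% lower. At an unadjusted p under 0.05 there were 9, of which 7 were lower (Ddx1, Ddx21, Ddx27, Ddx31, Ddx39, Ddx46 and Ddx51) and 2 higher (Ddx6 and Dhx32), against 26.5% of all genes (12.1% lower), and DESeq2 called 1 higher (Dhx32) and 1 lower (Ddx27). Over all genes tested the median log2 difference was 0.0008, with 6956 above 0 and 6933 below. For the helicases it was -0.09, with 19 above 0 and 29 below. It was -0.04 without NT culture 2 or N6L culture 3, -0.14 without NT culture 1 or 4, -0.21 (12 above 0 and 36 below) without N6L culture 1 and -0.18 with offsets for length and GC content, while library totals alone gave -0.002 with 24 on each side. Of the ribosome biogenesis helicases, 13 of 16 were below 0 and 0 passed, with a median of -0.22, and Ddx27 had the smallest p of the members, at -0.47 (SE 0.16, adjusted p = 0.0763). The lowest difference was that of Ddx46, -0.73 (SE 0.28, adjusted p = 0.115), and the highest that of Ddx6, 0.50 (SE 0.20, adjusted p = 0.124). N6L culture 3 had the lowest of the 3 treated polysomal values for 31 helicases and the highest for 12. Without N6L culture 1, 3 helicases passed, Ddx21, Ddx27 and Ddx46, all lower. With offsets for length and GC content 8 passed, Ddx6 higher and 7 lower. The shares of all genes called in these runs were not counted.

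Polysomes were next set against the cytoplasm of the same treatment. In NT cells 0 of 48 helicases passed, and 0.209% of all genes did in either direction. An unadjusted p under 0.05 was reached by 5 helicases, against 13.4% of all genes, and DESeq2 called 0. The 5 were Dhx36 (-0.74), Ddx10 (-0.66), Ddx52 (-0.59) and Ddx6 (-0.56), lower in the polysomes, and Ddx41 (0.37), higher. In N6L cells 16 helicases (33.3%) were lower in the polysomes than in the cytoplasm and 5 (10.4%) higher, where 20.6% and 18.4% of all genes were. The median helicase differed by -0.28, that of all genes by 0.03. When both fractions of 1 lysate were paired by a culture block, 21 were lower and 6 higher, Ddx1, Ddx5, Ddx17, Ddx20 and Dhx33 joining the lower ones and Dhx34 the higher ones. The share of all genes called in this paired fit was not counted, so the larger numbers cannot be read as particular to helicases.

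Of the translation helicases, 5 of 7 were lower in N6L polysomes. The log2 ratio of polysomes to cytoplasm of Ddx3x was -0.79, -1.44 and -2.03 in N6L cultures 1, 2 and 3 and -0.52, -0.59 and -0.06 in NT cultures 1, 2 and 4. All 3 treated cultures lay below the controls, and the fitted difference in N6L cells was -1.35 (SE 0.29, adjusted p = 0.00551). For Dhx36 the ratio was -0.68, -1.33 and -2.24 with N6L and -0.77, -0.96 and -0.41 without, and for Dhx29 -0.53, -0.92 and -1.69 and -0.05, -0.29 and -0.08. The treatments overlapped for Dhx36 and not for Dhx29, with fitted differences of -1.31 (SE 0.30, adjusted p = 0.00676) and -0.95 (SE 0.25, adjusted p = 0.011) in N6L cells. Ddx6 (-0.86) and Dhx57 (-0.75) were lower as well.

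Splicing helicases went both ways, 6 lower and 2 higher of 16. Ddx46 had the lowest value of all members, -1.49 (SE 0.28, adjusted p = 0.00448), with ratios of -0.66, -1.62 and -2.62 in N6L and -0.42, -0.74 and -0.38 in NT cultures. Dhx9 had -0.62, -1.35 and -2.51 with N6L and -0.41, -0.35 and -0.35 without, a fitted -1.31 (SE 0.33, adjusted p = 0.00887). In both, culture 3 was farthest from the controls, and only N6L culture 1 of Ddx46 reached into their range. Dhx15 (-0.92), Ddx42 (-0.75), Dhx40 (-0.73) and Dhx8 (-0.57) were lower too. On the other side Ddx41 had the highest value, 0.84 (SE 0.17, adjusted p = 0.00486), with ratios of 0.50, 0.84 and 1.12 in N6L and 0.19, 0.34 and 0.54 in NT cultures, and Ddx39 was higher by 0.40 (SE 0.14, adjusted p = 0.0392). Ribosome biogenesis helicases went both ways too, with Ddx10 (-1.33), Ddx21 (-1.02), Ddx52 (-0.95) and Ddx50 (-0.86) lower and Ddx49 (0.61) and Ddx56 (0.50) higher. Among the rest, Ddx58 differed by -1.18 (SE 0.22, adjusted p = 0.0044) and Ddx28 by 0.54 (SE 0.19, adjusted p = 0.0394).

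The cultures differed in this comparison. The median log2 ratio of the 48 helicases was -0.074, -0.310 and -0.453 in N6L cultures 1, 2 and 3 and -0.023, 0.051 and 0.032 in NT cultures 1, 2 and 4, while that of all genes stayed between -0.015 and 0.058. For all 16 helicases called lower, N6L culture 3 had the lowest N6L ratio, and for all 5 called higher it had the highest. Without that culture 11 helicases passed (10 lower, 1 higher), and without N6L culture 2 there were 5, Ddx3x, Ddx46, Ddx52 and Ddx58 lower and Ddx41 higher. Scaled by library totals alone, 16 were lower and 2 higher. For these runs too the shares of all genes called were not counted, so the counts have no background. This comparison and the cytoplasmic one between treatments share the N6L cytoplasmic libraries, so they are not independent of each other. For Ddx3x the values side by side were 1.09 between treatments in the cytoplasm, 0.17 between treatments in the polysomes and -1.35 between fractions, for Dhx9 1.06, 0.12 and -1.31, and for Ddx49 -0.55, -0.18 and 0.61.

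**Figure D3:**
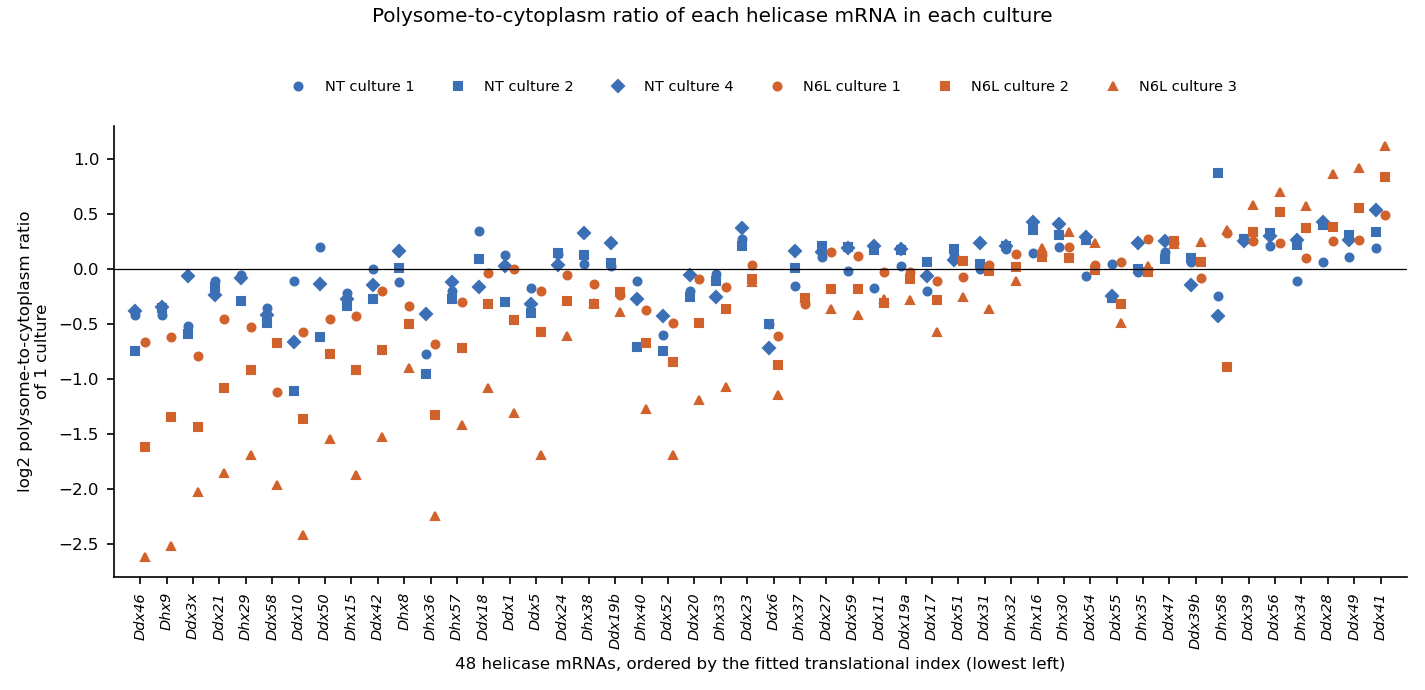
Log2 polysome-to-cytoplasm ratio (y axis) of each of the 48 helicase mRNAs tested (x axis, ordered by the fitted translational index) in 3 NT cultures (blue) and 3 N6L cultures (orange). Culture 3 (triangles) has the lowest N6L ratio for 33 of the 48, and the order ends at Ddx41, whose N6L ratios run from 0.50 to 1.12 and NT ratios from 0.19 to 0.54.

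Whether the polysome-to-cytoplasm ratio differed between treatments was tested as 1 contrast, the translational index (TI), which is the log2 ratio in N6L cells minus that in NT cells. None of the 48 helicases passed (smallest adjusted p = 0.555 in edgeR's quasi-likelihood test, and 0 with DESeq2). In that edgeR test 0 of all 13889 genes passed either, with the same smallest adjusted p, so the absence of calls is not particular to helicases. The helicase values leaned low, with 38 of 48 below 0 and a median of -0.32, where the median of all genes was 0.01. That median was -0.17 without N6L culture 3 and between -0.24 and -0.42 without any other culture. An unadjusted p under 0.05 was reached by 6 helicases (12.5%), all with a lower TI, against 4.55% lower of all genes and 7.73% in either direction. In the fit with the culture as a block 16 reached it, 15 of them lower, against 21.6% of all genes in either direction and 11.3% lower in that same fit. The 6 were Ddx46 (-0.98), Ddx3x (-0.92), Ddx21 (-0.85), Dhx29 (-0.80), Ddx58 (-0.76) and Dhx8 (-0.58). The highest TI was that of Ddx41 (0.48, SE 0.24, adjusted p = 0.555). For 16 helicases the 3 N6L ratios lay apart from the 3 NT ratios, all 16 lower, against 14.4% lower and 15.3% higher of all genes and 29.7% in either direction. For 4 of them all NT ratios were above 0 and all N6L ratios below 0 on the log2 scale, which 1.64% of all genes showed. Where 0 lies depends on the scaling, and some of these ratios lay close to it.

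The ratios per culture show the spread behind these values. For Ddx21 the mean log2 ratio was -0.17 ± 0.06 in NT and -1.13 ± 0.70 in N6L cultures (SD over 3 cultures, p = 0.1 in a two-sided exact permutation test), and 0.1 is the smallest p that this test allows for 3 against 3, so it cannot pass 0.05 whatever the values. The ratio of Dhx9 gave -0.37 ± 0.04 and -1.49 ± 0.96 with the same exact p of 0.1. That of Ddx46 gave -0.51 ± 0.20 and -1.63 ± 0.98 (exact p = 0.2), and that of Ddx39b 0.01 ± 0.13 and 0.08 ± 0.16 (exact p = 0.6). The spread between cultures was wider in N6L than in NT cells for the first 3. Without N6L culture 1 the number with an unadjusted p under 0.05 was 15, without N6L culture 2 or NT culture 4 it was 1, without NT culture 1 or N6L culture 3 it was 2, and without NT culture 2 it was 3. The shares of all genes reaching that limit without a culture were not counted, so these changes cannot be read as particular to helicases.

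The helicases differ in base composition, from 37.4% GC in the longest annotated transcript of Ddx50 to 59.6% in that of Dhx34. They also differ in merged exon length, and their values went with both. Across the 48 members the cytoplasmic difference had a Pearson r = -0.59 (rho = -0.60) with GC content, the polysome-to-cytoplasm difference in N6L cells r = 0.77 (rho = 0.80), and the polysomal difference between treatments r = 0.01 (rho = 0.02). Over all 13867 genes with an annotation the first 2 values were r = -0.17 (rho = -0.20) and r = 0.51 (rho = 0.52). For the log2 of exon length the members gave r = 0.48 (rho = 0.47) with the cytoplasmic difference and r = -0.44 (rho = -0.41) with that between N6L fractions, and all genes r = 0.40 (rho = 0.44) and r = -0.52 (rho = -0.58). These are descriptions across genes of the same libraries, and genes are not independent replicates. The 16 helicases lower in N6L polysomes had a median of 44.2% GC and the 5 higher ones 55.6%, and at the third codon position 43.5% and 63.8%. When each library was corrected for exon length and GC content, the median cytoplasmic difference of the 48 was 0.05, with 9 higher and 3 lower. In the polysome-to-cytoplasm comparison of N6L cells 14 were then lower and 4 higher, 13 of the original 21 remained, and Ddx28 and Ddx50 changed sign. The shares of all genes called after the correction were not counted. How far base composition or length takes part in these differences was not tested beyond this correction.

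**Figure D4:**
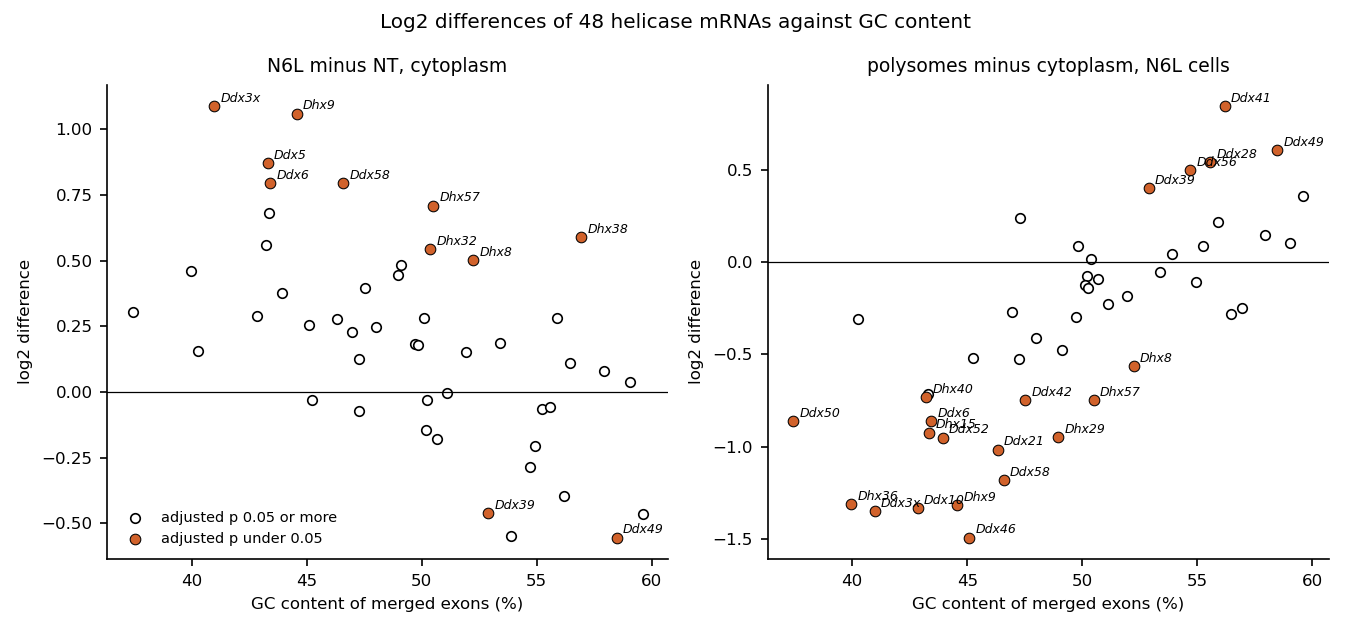
Log2 differences (y axes) of the 48 helicase mRNAs tested against GC content in percent (x axes), for N6L minus NT in the cytoplasm and for polysomes minus cytoplasm in N6L cells. GC content is that of the longest annotated transcript of each gene, although the axes name merged exons. Filled points passed an adjusted p of 0.05. In the right panel the 5 helicases called higher all have over 50% GC, and 14 of the 16 called lower have under 50%.

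RNA helicases outside the Ddx and Dhx symbols were read in the same way. Of 22 symbols listed, 21 were found in the annotation and 19 were tested. In the cytoplasm 4 rose and 1 fell. The risers were Ifih1 (2.54, SE 0.44, adjusted p = 0.00227), the RNA sensor MDA5, Helz (0.99, SE 0.28, adjusted p = 0.0194), Znfx1 (0.56, SE 0.20, adjusted p = 0.0489) and Ascc3 (1.20, SE 0.33, adjusted p = 0.0183), which helps to split collided ribosomes, and the one that fell was Eif4a3 (-0.49, SE 0.17, adjusted p = 0.0459), the helicase of the exon junction complex. In the polysomes Dicer1 (-0.77, SE 0.19, adjusted p = 0.0273), the enzyme that makes miRNAs, was lower and 0 were higher. In N6L cells 11 of the 19 were lower in the polysomes than in the cytoplasm and 0 higher, with a median of -0.72. Among 44 cofactors of helicases, 8 rose and 5 fell in the cytoplasm. The risers included Eif4b (0.59, SE 0.17, adjusted p = 0.0218) and Pdcd4 (0.87, SE 0.27, adjusted p = 0.0295), which stimulate and inhibit the initiation helicase eIF4A, respectively, and Cnot1 (1.15, SE 0.24, adjusted p = 0.00516), the scaffold through which Ddx6 meets the deadenylase. Magoh (-0.75) and Rbm8a (-0.76), partners of Eif4a3 in the exon junction complex, fell together with it. Casc3, a further partner in that complex, lay above 0 (0.38, SE 0.15, adjusted p = 0.0741) and did not pass. In the polysomes 1 cofactor rose and 4 fell, and in N6L cells 5 were higher and 13 lower in polysomes than in the cytoplasm. The shares of all genes called in each comparison are those given above, and how these lists differ from the Ddx and Dhx members was not tested.

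Some helicase counts share sequence with other genes. Of the 50-base stretches of the coding sequence, 71.7% of Ddx18, 48.7% of Ddx19a (with Ddx19b), 44.4% of Ddx5, 19.9% of Ddx50 and 19.2% of Ddx6 also occur in other annotated transcripts, mostly processed copies. Apart from the Ddx19 pair, those copies that the files list had at most 1.62 CPM in any library. For 8 helicases, Ddx17, Ddx28, Ddx39, Ddx49, Ddx54, Dhx30, Dhx32 and Dhx57, another protein-coding gene overlaps the locus, and how the counting treated strand is not given in the sources used here. Their counts are uncertain to that extent.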

How the data were processed

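RNA sequencing of cytoplasmic and polysomal fractions was read from count tables. The authors deposited raw counts per Ensembl gene for 48 technical replicates, which their processing notes tie to bcl2fastq 2.18.0.12, STAR, HTSeq 0.5.3 and mm10. How reads were assigned to genes, strand included, was not found in the labels or methods. The 4 technical replicates of each library gave chi-square values of 1.02 to 1.05 per degree of freedom against each other, near sampling noise, and were summed to 12 libraries of 19519911 to 44972333 counts. For 3 technical replicates of the N6L culture 2 cytoplasm the title and description name different cultures, and the title was followed. The main test was edgeR 4.0.16 (R 4.3.3) with its default expression filter, TMM scaling, the quasi-likelihood test, 1 mean per group over all 12 libraries, and Benjamini-Hochberg adjustment over 13889 genes. An adjusted p under 0.05 was a call. CPM are TMM-scaled, and ratios per culture are log2 differences of CPM with a prior count of 2. The fit was tested on simulated counts. Symbols, exons and coding sequences came from GENCODE vM21 (GRCm38). At these depths counting error is small for the tested members other than Dhx58.

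Cytoplasm and polysomes of a culture came from 1 lysate, and the correlation between their deviations from group means was 0.364 to 0.645 over the NT and 0.0368 to 0.230 over the N6L lysates. Culture was therefore a block in an alternative. Other alternatives were DESeq2 1.42.0, scaling by library totals, no expression filter, a minimum of 10 counts in every library, only the groups compared, offsets for exon length and GC content (mgcv 1.9.3), and leaving out each culture. The members, gene lists and roles were chosen with earlier results of these data known. Every member could be named, and values in all libraries were given for a fixed set and for the 3 highest and 3 lowest log2 differences in each comparison.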

Additional observations from a re-analysis of the deposited data

Results flagged for a closer look

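For 4 helicases every NT culture had a polysome-to-cytoplasm ratio above 1 and every N6L culture one below 1, a pattern that 1.64% of all 13889 genes showed. The mean log2 ratio in N6L cultures minus that in NT cultures was -0.26 for Ddx19a and -0.39 for Ddx19b, the paralogous helicases of mRNA export. It was -0.43 for Ddx24, which acts in ribosome biogenesis, and -0.42 for Dhx38, the spliceosomal helicase that also rose in the cytoplasm. For Ddx24 the fitted difference between N6L fractions was -0.31, and with offsets for length and GC content it turned to 0.49. Where a ratio of 1 lies depends on the scaling. The lowest NT log2 ratios were 0.028 (Ddx19a), 0.031 (Ddx19b), 0.035 (Ddx24) and 0.045 (Dhx38). With library totals alone the median log2 difference of all genes between NT fractions moved from 0.032 to -0.043. Whether the 4 keep the pattern under other scaling was not tested. The difference between treatments was tested as the translational index, which did not pass for any of the 4 or for any other gene tested. Ddx19a and Ddx19b share much of their coding sequence, so their counts are not independent of each other.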

How the results depend on the processing

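Scaled by library totals alone, the median cytoplasmic log2 difference of the helicases was 0.346 with that of all genes at 0.186, and 1 helicase passed between treatments in the polysomes. With offsets for length and GC content that cytoplasmic median was 0.0498 and 8 passed in the polysomes. With no filter on low counts 2 passed in the polysomes, 1 between NT fractions, and 13 had an unadjusted p under 0.05 for TI. DESeq2 called 2 in the polysomes, and a fit of only the groups compared called 19 in the cytoplasm. For the alternative fits the shares of all genes passing the adjusted limit were not counted, so these numbers have no background. At the unadjusted limit such a share was counted only for TI with culture as a replicate block. With culture as a replicate block 16 had an unadjusted p under 0.05 for TI, and with that block and the offsets 14, with 2 called between NT fractions. A block on culture numbers 1 and 2 across treatments, where only the number is shared, gave 11 higher and 4 lower in the cytoplasm and 0 in the polysomes. Leaving out 1 culture gave 1 to 13 calls in the cytoplasm with medians of 0.0992 to 0.294, 0 to 3 in the polysomes, 0 to 1 between NT fractions and 5 to 25 between N6L fractions. For TI those runs gave 0 calls, and 1 to 15 helicases had an unadjusted p under 0.05. The difference between N6L fractions changed sign with the offsets, without and with the block, for Ddx24 (0.494 and 0.490), Ddx28 (-0.0437 and -0.0411) and Ddx50 (0.111 and 0.113), and with both for Ddx39b (-0.261). The cause was not tested. Low counts limit Dhx58 and the 4 members not tested, and Ifih1 outside the members.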
